A study of Homo sapiens with 4 samples.

Results

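The 10 genes described here encode the 5 subunits of the transcription factor NF-kB (NFKB1, NFKB2, RELA, RELB and REL), 2 of its inhibitors (NFKBIA and NFKBIE), the deubiquitinating enzyme TNFAIP3, and the signalling proteins BIRC3 and TRAF1. They were chosen by name as subunits of the factor and known feedback genes of it. The rule for choosing them uses no measured value, but they were proposed with earlier results of these data known. They are 10 of the 58174 rows with a gene identifier in the deposited table. All 10 reached an FPKM (fragments scaled to transcript length and to sequencing depth) of at least 1 in at least 1 library of each cell line.

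The transcriptomes came from SW1990 and PANC-1, established human pancreatic cancer cell lines. The design asked how each transcriptome changed after radiation in cells grown in FBS-containing medium, with a different base medium for each line. Each line gave 1 library from unirradiated cells and 1 from cells treated with 10 Gy of X-rays, so no condition had a replicate. The time between radiation and RNA extraction is not given in the sources used here. Each test of a pair therefore compared 2 libraries and not 2 conditions, and the 95% intervals below cover counting error only. The gene rows held 17851815 counts in unirradiated SW1990, 18305682 in irradiated SW1990, 23323266 in unirradiated PANC-1 and 20026595 in irradiated PANC-1. All 4 libraries were whole cultures, in which fewer cells of a type and less RNA per cell cannot be told apart.

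Marker genes were read before the NF-kB genes. The keratin KRT8, a marker of simple epithelium, was at an FPKM of 1350 and 1890 in unirradiated and irradiated SW1990 and at 786 and 851 in PANC-1. The adhesion genes of epithelium were low in PANC-1, where EPCAM was at 2.28 and 2.81 FPKM and CDH1 at 0.673 and 1.21, against 217 and 218 for EPCAM and 140 and 239 for CDH1 in SW1990. Of 8 epithelial markers, 6 reached 1 FPKM in unirradiated PANC-1 and 7 in irradiated PANC-1, against 8 in each SW1990 library. The claudin CLDN7 was at 7.7 and 7.68 FPKM in PANC-1, against 55.9 and 82.5 in SW1990. CLDN4 was at 0.879 and 0.317 in PANC-1, against 11.3 and 8.01. The keratin KRT7 was similar in both lines, at 6.35 and 5.02 in PANC-1 and 5.79 and 6.02 in SW1990. EPCAM, CDH1 and these claudins were thus lower in PANC-1, but CLDN7 was not absent. Of 8 immune markers, the leukocyte gene PTPRC had 0 counts in 3 libraries and 2 in irradiated SW1990, and the lymphocyte genes CD3D, CD3E and MS4A1 had 0 counts in all 4. The most abundant immune marker in PANC-1 was CD68, a lysosomal gene that is not limited to leukocytes, at 18.8 and 13.9 FPKM. The 8 immune markers summed to 1.77 and 2.25 FPKM in SW1990 and to 19.4 and 15 in PANC-1, nearly all of the latter from CD68. In SW1990 the most abundant was CD14, at 0.923 and 1.31 FPKM, with 0.468 and 1.09 in PANC-1. Of 8 endothelial and fibroblast markers, COL1A2 and DCN had 0 counts in all 4 libraries, COL1A1, a collagen, was at 1.4 and 2.85 FPKM in SW1990 and 8.44 and 11.0 in PANC-1, and PDGFRB, a growth factor receptor, was lower after radiation in SW1990, at 1.56 and 1.03 FPKM.

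NF-kB is a family of dimers that are held in the cytoplasm by inhibitor proteins. In the canonical route, a kinase complex marks the inhibitor for destruction and dimers of RELA or REL with the product of NFKB1 enter the nucleus. In the noncanonical route, the product of NFKB2 is processed and moves with RELB. Among the first genes that active dimers switch on are their own brakes, NFKBIA, NFKBIE and TNFAIP3, and several of the subunits themselves, so transcripts of these genes are often read as a record of the pathway's activity. DNA damage by radiation can also reach the kinase complex, through ATM and the adaptor IKBKG.

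Promoters of feedback genes are known to carry kappa B elements, the DNA that the dimers bind. The genes were chosen as subunits and known feedback genes, so matches of that element are a description and not an independent finding. The RefSeq promoter table of GRCh38.p14 covers the 300 bases from 250 before to 50 after each gene's start and holds 14 promoters of 8 of the 10 genes, all but RELB and NFKBIE. The 10-base kappa B consensus used was 3 G, a purine, any 2 bases, 2 pyrimidines and 2 C, on either strand. A match of it was in promoters of 6 of these 8 genes, beside 13.3% of all 27305 genes. Counted by promoter, it was in 7 of the 14, beside 11.3% of all 35116. The shorter form GGANTTTCC was in promoters of 5 of the 8 genes, beside 2.01% of all genes, and overlaps the consensus at several of the same places. The consensus matched 3 times in 1 promoter of NFKB2 and 2 times in another, 2 times each in REL, TNFAIP3 and BIRC3, and 1 time in NFKB1 and NFKBIA, counting overlapping matches on both strands. The stretches below show 1 of these per gene, and both for BIRC3, the gene whose response by counts differed most between the lines. In each 30-base stretch, written 5′ to 3′ on the gene's own strand, capitals mark the match.
NFKB1 (chr4:102501300-102501329, plus strand): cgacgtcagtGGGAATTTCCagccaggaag
NFKB2 (chr10:102395674-102395703, plus strand): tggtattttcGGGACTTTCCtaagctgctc
REL (chr2:60881517-60881546, plus strand): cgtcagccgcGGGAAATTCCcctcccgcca
NFKBIA (chr14:35404811-35404840, minus strand): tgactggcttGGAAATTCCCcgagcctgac
TNFAIP3 (chr6:137867182-137867211, plus strand): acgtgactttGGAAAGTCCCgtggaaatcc
BIRC3 (chr11:102317275-102317304, plus strand): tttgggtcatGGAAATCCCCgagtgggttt
BIRC3 (chr11:102317339-102317368, plus strand): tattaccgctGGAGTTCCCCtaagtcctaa

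The matches shown for NFKB1, NFKB2 and REL read on the gene's strand and began 49, 21 and 47 bases before a start. Those of NFKBIA, TNFAIP3 and BIRC3 read on the opposite strand, the NFKBIA match 81 bases before the start, the TNFAIP3 match 67 bases before it, and the BIRC3 matches 199 and 135 bases before it. No match of these letters lay in the windows of RELA or TRAF1. A match is a description of the letters and not evidence of binding in these cells.

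The subunits fell into an abundant and a scarce set in both lines. RELA (chr11:65653596-65663094, minus strand), which carries the activation domain of the common canonical dimer, was at 25.2 FPKM in unirradiated and 21.3 in irradiated SW1990, and at 48.8 and 39.0 in PANC-1. NFKB1 (chr4:102501329-102617302, plus strand), which encodes the precursor p105 and its product p50, was at 31.3 and 25.9 FPKM in SW1990 and at 15.8 and 12.8 in PANC-1. The partners thus stood in opposite order in the 2 lines, since the ratio of RELA to NFKB1 in FPKM was 0.805 and 0.822 in SW1990 and 3.09 and 3.05 in PANC-1. NFKB2 (chr10:102394110-102402529, plus strand), which encodes the noncanonical precursor p100, was at 14.5 and 16.4 FPKM in SW1990 and at 21.6 and 26.7 in PANC-1. The ratio of NFKB1 to NFKB2 in FPKM was 2.16 and 1.58 in SW1990 and 0.731 and 0.479 in PANC-1, so NFKB1 led in SW1990 and NFKB2 in PANC-1.

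RELB and REL were the scarce subunits. RELB (chr19:45001430-45038198, plus strand), the partner of processed NFKB2, was at 4.22 FPKM in unirradiated and 5.04 in irradiated SW1990, and at 6.14 and 8.0 in PANC-1. REL (chr2:60881521-60931610, plus strand), a canonical subunit best known from lymphocytes, was at 4.92 and 5.32 FPKM in SW1990 and at 3.76 and 6.05 in PANC-1. Its exons overlap the expressed gene AC010733.2 on the same strand, so its counts are less certain than those of the other 9 genes, none of which overlaps an expressed gene. The 5 subunits summed to 80.1 and 74.0 FPKM in SW1990 and to 96.1 and 92.5 in PANC-1.

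The inhibitors differed in level from each other more than between lines. NFKBIA (chr14:35401511-35404749, minus strand), which encodes the main cytoplasmic inhibitor, was at 34.8 FPKM in unirradiated and 27.9 in irradiated SW1990, and at 19.8 and 27.2 in PANC-1. NFKBIE (chr6:44258166-44265788, minus strand), a second inhibitor with slower feedback, was at 3.25 and 3.83 FPKM in SW1990 and at 4.95 and 8.19 in PANC-1. The ratio of NFKBIA to NFKBIE in FPKM was 10.7 and 7.28 in SW1990 and 4.0 and 3.32 in PANC-1. NFKBIA exceeded RELA in both SW1990 libraries, with ratios of 1.38 and 1.31 in FPKM, and was below it in both PANC-1 libraries, with ratios of 0.406 and 0.697.

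The remaining 3 feedback genes were low in SW1990, and BIRC3 was the one that reached the middle range in PANC-1. TNFAIP3 (chr6:137867188-137883312, plus strand), which encodes the ubiquitin-editing brake A20, was at 2.40 FPKM in unirradiated and 1.64 in irradiated SW1990, and at 1.35 and 2.44 in PANC-1. BIRC3 (chr11:102317450-102339403, plus strand), a ubiquitin ligase of TNF receptor complexes that limits cell death and restrains the noncanonical route, was at 2.96 and 2.82 FPKM in SW1990 and at 7.89 and 16.5 in PANC-1. TRAF1 (chr9:120902393-120929173, minus strand), an adaptor that binds BIRC3, was at 1.01 and 1.05 FPKM in SW1990 and at 2.29 and 1.77 in PANC-1. BIRC3 moved from rank 8 of the 10 genes in both SW1990 libraries to rank 5 and then 4 in unirradiated and irradiated PANC-1. With 1 library per condition, neighbours in this order cannot be told apart beyond counting error.

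**Figure D1:**
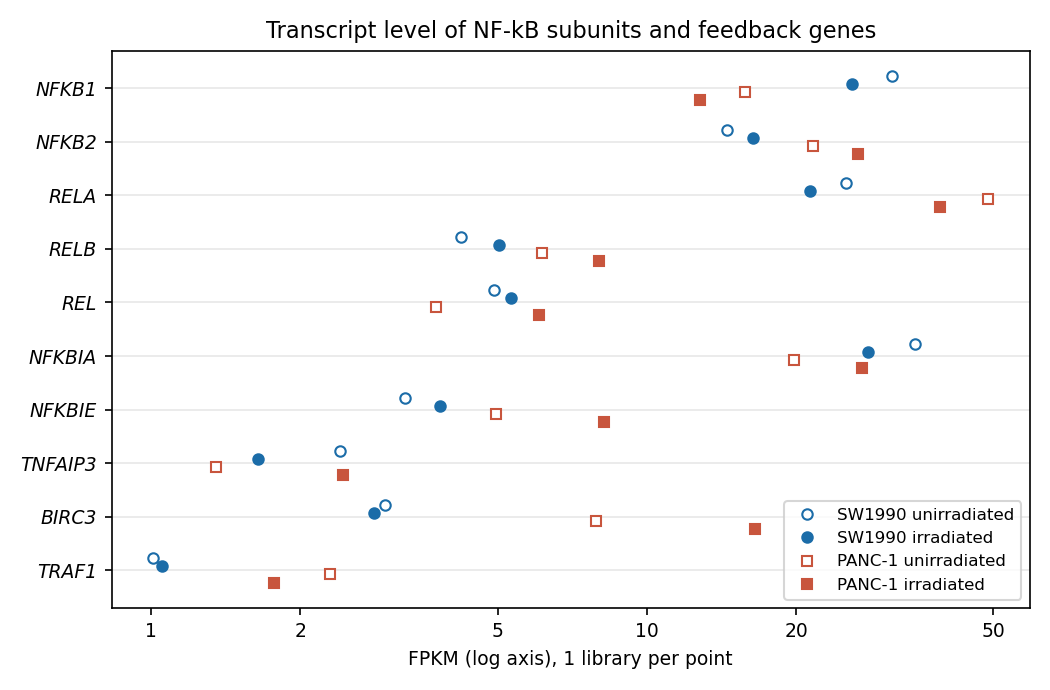
Transcript level in FPKM, on a log axis, of the 10 genes in each of the 4 libraries, with 1 point per library (circles SW1990, squares PANC-1, open unirradiated, filled irradiated). The BIRC3 points separate the lines most, at 2.96 and 2.82 FPKM in SW1990 and 7.89 and 16.5 in PANC-1.

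The first comparison asked how the lines differed over both treatments. BIRC3 showed the widest gap, 3.94-fold higher in PANC-1 (log2 difference of SW1990 minus PANC-1 -1.98 ± 0.31, SE, adjusted p = 0.00936 by edgeR's quasi-likelihood test). RELA was 2.17-fold higher in PANC-1 (-1.12 ± 0.14, edgeR adjusted p = 0.00562), TRAF1 2.19-fold higher (-1.13 ± 0.27, edgeR adjusted p = 0.0284, not passed by DESeq2, adjusted p = 0.0908) and NFKB2 1.83-fold higher (-0.87 ± 0.15, edgeR adjusted p = 0.011). NFKB1 went the other way and was 1.85-fold higher in SW1990 (0.89 ± 0.14, edgeR adjusted p = 0.0101). These 5 of the 10 genes passed an adjusted p of 0.05, beside 43.6% of all 18180 genes in the fit, so the share among the NF-kB genes was near that of the transcriptome. The SEs were computed from the fold change and the F statistic and are approximate, since the fit used 2 libraries of each line, a term for treatment and 1 residual degree of freedom.

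The other 5 genes did not pass. RELB was at -0.64 ± 0.23 (edgeR adjusted p = 0.084) and NFKBIE at -0.85 ± 0.29 (edgeR adjusted p = 0.0738), both with higher values in PANC-1. For NFKBIA, REL and TNFAIP3, the log2 differences of 0.27 ± 0.22, 0.04 ± 0.19 and 0.01 ± 0.29 were near or within their SEs (edgeR adjusted p = 0.367, 0.882 and 0.978). The epithelial genes EPCAM and CDH1 also separated the lines, and the part of cell identity in these differences was not tested.

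Read against each other within a treatment, the libraries of the 2 lines gave the same direction for each of the 5 genes. For BIRC3 the log2 ratio of SW1990 over PANC-1 was -1.41 (95% interval -1.59 to -1.23) in the unirradiated libraries and -2.51 (-2.70 to -2.34) in the irradiated ones, that is 2.65-fold and 5.71-fold higher in PANC-1. RELA was at -1.17 (-1.27 to -1.06) and -1.03 (-1.15 to -0.92), and NFKB1 at 0.83 (0.73 to 0.93) and 0.98 (0.87 to 1.09). The gap of BIRC3 was thus wider among irradiated cells, while those of RELA and NFKB1 were similar in both treatments. NFKBIA was higher in SW1990 among unirradiated cells (0.59, 0.44 to 0.75) and level among irradiated ones (-0.03, -0.18 to 0.12). At a q-value under 0.001 and more than 2-fold, RELA, BIRC3 and TRAF1 were called in the unirradiated libraries, beside 36.1% of genes, and RELA, NFKBIE and BIRC3 in the irradiated ones, beside 35.3%. All of these TMM-scaled calls were higher in PANC-1. TMM moved all log2 ratios of the unirradiated libraries by 0.2 against total counts. With total counts, an alternative added after seeing the data, the RELA calls were lost (-0.97 unirradiated and -0.96 irradiated), and NFKB1 was called higher in SW1990 in both treatments (1.03 and 1.05).

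**Figure D2:**
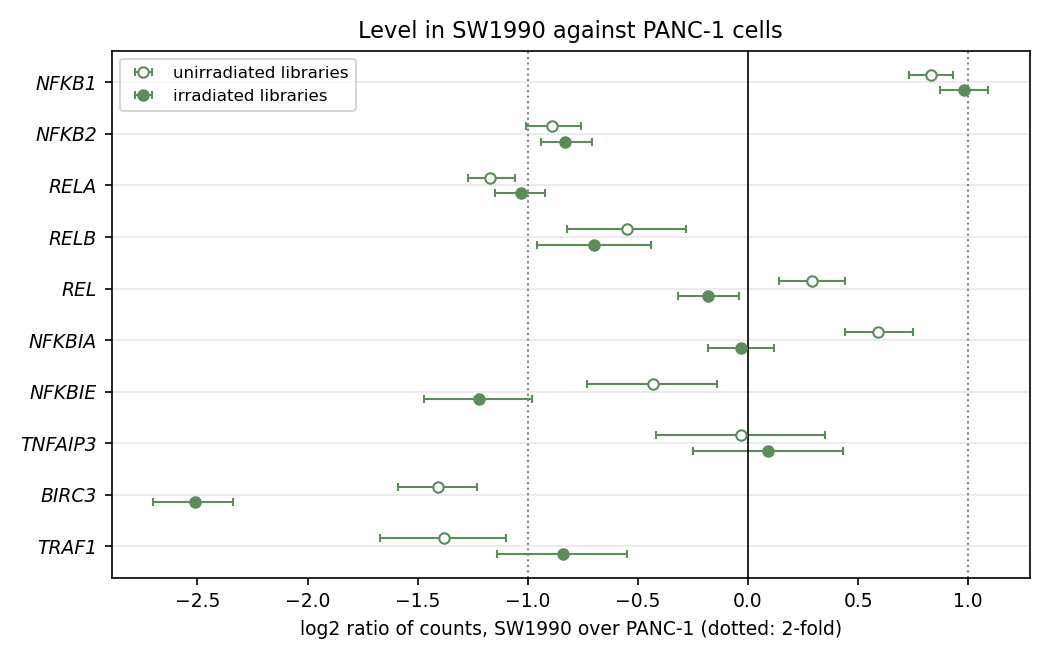
Log2 ratio of normalised read counts, SW1990 over PANC-1, for the 10 genes, from the unirradiated (open) and irradiated (filled) libraries, with 95% counting intervals and dotted lines at 2-fold. BIRC3 moves from -1.41 to -2.51 between the treatments, while NFKB1 stays to the right of 0.

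The second comparison asked which of these transcripts changed after 10 Gy in PANC-1. The largest values were those of an inhibitor and of BIRC3. NFKBIE had 246 counts in the unirradiated and 479 in the irradiated library, a 2.16-fold rise (log2 fold change 1.11, 95% interval 0.89 to 1.34). It was the 1 gene of the 10 that passed the limits of the study's methods, a q-value under 0.001 and more than 2-fold, here with q-values of the exact binomial test, which 4.8% of the 15159 genes tested passed. From the deposited FPKM its log2 fold change was 0.73, which is under 2-fold. The call was also lost when a variation between cultures of 0.2 was assumed. The fit over the 4 libraries gave a common biological coefficient of variation of 0.218. With no repeated culture and 1 residual degree of freedom, that value also holds any difference of response between the lines. BIRC3 went from 1019 to 1789 counts, 1.95-fold (0.96, 0.85 to 1.07), with a q-value under 0.001 but just short of 2-fold, and was past it from the FPKM (1.06).

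Smaller shifts in PANC-1 ran in both directions. NFKBIA had 594 counts without and 739 with radiation (0.46, 0.31 to 0.62), and REL had 721 and 931 (0.52, 0.38 to 0.66). NFKB2 had 1613 and 1658 counts (0.19, 0.09 to 0.29). Each of these had a q-value under 0.001 in the direction of more transcript, so inhibitors and 2 subunits stood higher in the irradiated library. RELA had 2553 and 1850 counts (-0.31, -0.40 to -0.23), NFKB1 had 1338 and 1022 (-0.24, -0.36 to -0.12), and TRAF1 had 419 and 280 (-0.43, -0.66 to -0.21). The pair that makes the common canonical dimer and the adaptor of BIRC3 were thus lower in that library, again with q-values under 0.001. RELB (305 and 330 counts, 0.26, 0.03 to 0.49) and TNFAIP3 (126 and 144 counts, 0.34, -0.01 to 0.70) did not pass.

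In all, 8 of the 10 genes had a q-value under 0.001 in PANC-1 at any fold, beside 34.8% of all genes tested, and 2, NFKBIE and BIRC3, passed with more than 1.5-fold, beside 11.9%. The median log2 fold change of the 10 genes was 0.30, beside 0.0 over all genes tested. The size of change of NFKBIE exceeded that of 92.3% of genes tested in PANC-1, and that of BIRC3 exceeded 90.2%.

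In SW1990 no change of these transcripts was called. None of the 10 genes passed a q-value of 0.001 with more than 2-fold, beside 4.21% of the 15731 genes tested, none passed with more than 1.5-fold, beside 9.36%, and none passed at any fold, beside 26.4%. The largest value was that of TNFAIP3, which had 108 counts in the unirradiated library and 147 in the irradiated one (0.44, 0.07 to 0.81). Its deposited FPKM ran in the opposite direction, with a log2 fold change of -0.55. NFKBIE had 160 and 197 counts (0.29, -0.01 to 0.60), and NFKB2 had 765 and 899 (0.23, 0.09 to 0.37).

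Among the abundant genes other than NFKB2, the counts in irradiated SW1990 were lower by amounts that did not pass. RELA had 998 and 869 counts (-0.21, -0.34 to -0.07), NFKBIA had 787 and 695 (-0.18, -0.33 to -0.04), and NFKB1 had 2093 and 1936 (-0.12, -0.21 to -0.03). Their intervals exclude 0, but no q-value was under 0.001. BIRC3 had 337 and 301 counts (-0.17, -0.40 to 0.06), RELB 183 and 195 (0.09, -0.21 to 0.39), REL 773 and 791 (0.03, -0.12 to 0.17) and TRAF1 141 and 150 (0.08, -0.26 to 0.43). The intervals of these 4 genes include 0. Those of BIRC3 and REL lie below the log2 fold changes of the same genes in PANC-1, as far as counting error goes. The direction for REL turns with total-count scaling. The median over the 10 genes was 0.06, beside -0.01 over all genes tested.

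**Figure D3:**
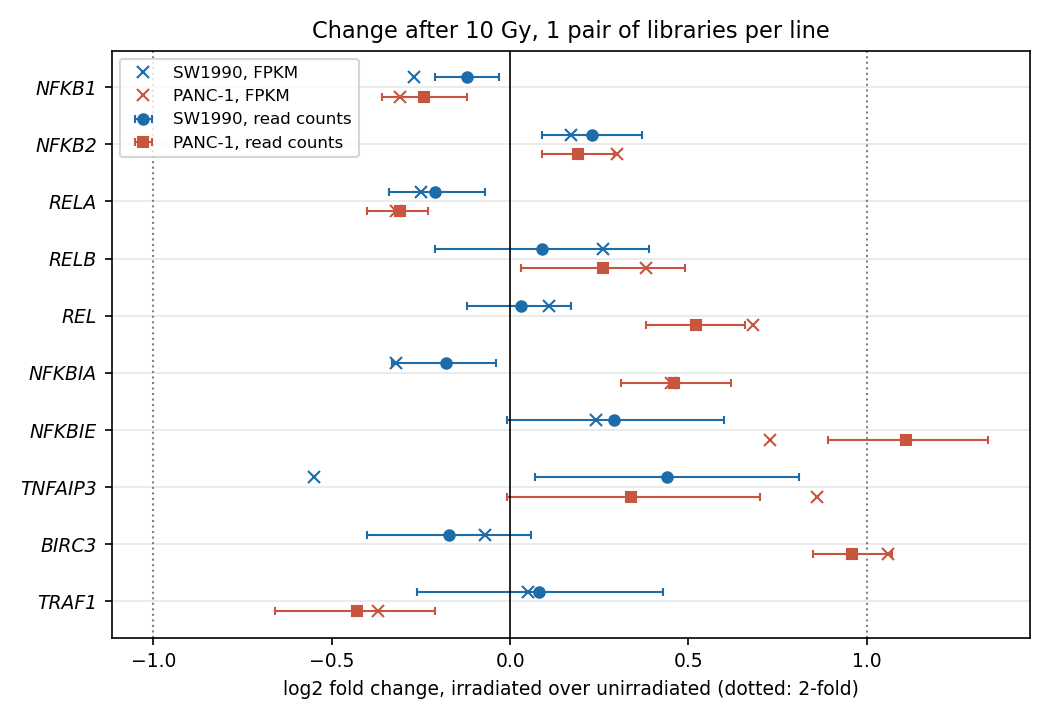
Log2 fold change after 10 Gy, irradiated over unirradiated, for the 10 genes in SW1990 (circles) and PANC-1 (squares) from read counts, with 95% counting intervals, and from FPKM (crosses). Dotted lines mark 2-fold, which NFKBIE passes in PANC-1 from the counts and BIRC3 from the FPKM.

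The third comparison tested the difference of the radiation change between the lines directly. For BIRC3, the log2 fold change was 1.13 higher in PANC-1 than in SW1990 (95% interval 0.88 to 1.38), a ratio of folds of 2.19. It was the 1 gene of the 10 called at a q-value under 0.001 and a ratio above 2, beside 5.83% of 17662 genes tested. NFKBIE differed by 0.82 (0.44 to 1.19), NFKBIA by 0.65 (0.44 to 0.86) and REL by 0.49 (0.29 to 0.69), each with a q-value under 0.001 and a ratio under 2. At any ratio, 4 of the 10 genes thus had such a q-value, beside 22.1% of all genes tested, and 3 passed with a ratio above 1.5, beside 11.8%. The 2 inhibitors, REL and BIRC3 thus had higher log2 fold changes in PANC-1 than in SW1990. For NFKBIA the sign itself differed, at 0.46 in PANC-1 and -0.18 in SW1990.

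For the other subunits, no difference was detected at this depth. The difference was -0.12 (-0.27 to 0.03) for NFKB1, -0.11 (-0.27 to 0.05) for RELA, -0.04 (-0.21 to 0.13) for NFKB2 and 0.18 (-0.19 to 0.54) for RELB. Within counting error, these intervals exclude a 2-fold difference among these 4 libraries, but variation between cultures is not in them. TNFAIP3 was at -0.10 (-0.59 to 0.40) from counts but at 1.40 from its FPKM, an opposite direction past a 2-fold ratio, so its response is uncertain. TRAF1 was at -0.52 (-0.91 to -0.12), with an interval that excludes 0 but a q-value above 0.001. The test compares 4 libraries, so it does not separate the line's response from variation between cultures.

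**Figure D4:**
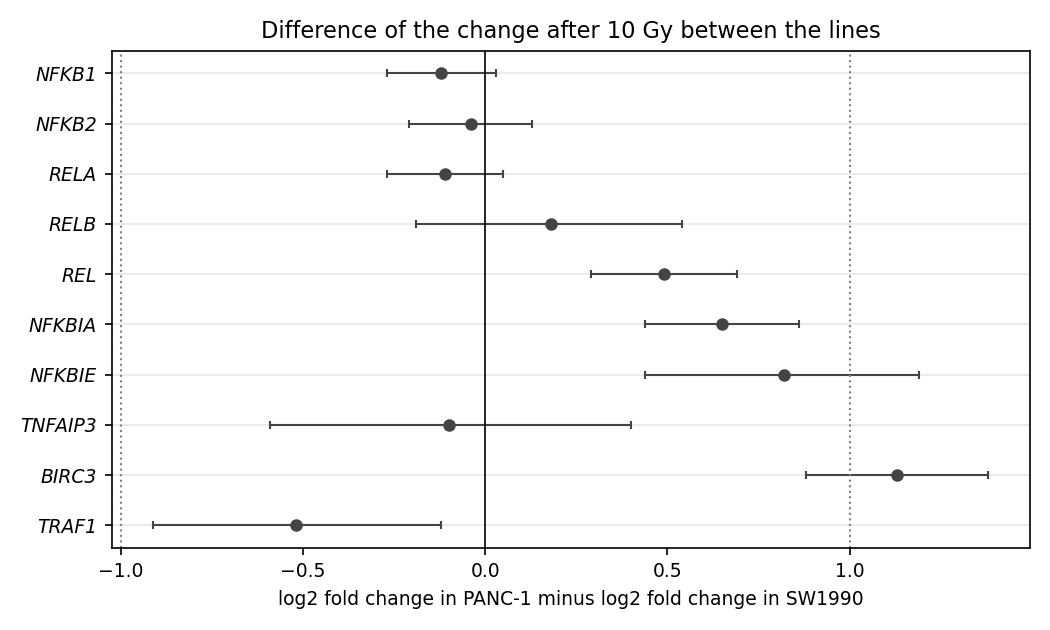
Difference of the log2 fold change after 10 Gy, PANC-1 minus SW1990, for the 10 genes, with 95% counting intervals and dotted lines at a 2-fold ratio. BIRC3 lies past the line at 1.13, and NFKB1, NFKB2 and RELA lie within 0.12 of 0.

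Taking the lines as the repeats of the treatment, no NF-kB gene passed. In the fit over all 4 libraries, 0 of the 10 genes and 0.0% of 18180 genes reached an adjusted p of 0.05 for radiation by edgeR's quasi-likelihood test, while 833 genes (4.58%) had an unadjusted p under 0.05. By DESeq2, 38 genes passed, none of the 10 among them, although RELB, NFKBIE, TNFAIP3 and TRAF1 were given no adjusted p there. By limma voom 0 passed, with 915 genes under an unadjusted p of 0.05. NFKBIE was nearest, with a log2 fold change of 0.72 ± 0.29 (SE, edgeR adjusted p = 0.936), higher in both irradiated libraries. BIRC3 was at 0.42 ± 0.30 (edgeR adjusted p = 0.936), with opposite signs in the 2 lines.

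The 2 measures in the table disagreed for TNFAIP3 and NFKBIE. For TNFAIP3, 1 unit of FPKM stood for 45.0 counts in unirradiated and 89.5 in irradiated SW1990, and for 93.6 and 59.1 in PANC-1. With total-count scaling in place of TMM, its count log2 fold change was 0.41 in each line. Its FPKM log2 fold change minus its TMM-scaled count log2 fold change, less the median of that gap over the genes compared, was -0.96 in SW1990. This gap was larger in size than that of 99.3% of the 12335 genes compared. In PANC-1 it was 0.45, larger in size than that of 93.9% of 12314 genes. For NFKBIE in PANC-1, counts per unit of FPKM were 49.7 without and 58.5 with radiation. Its gap, taken in the same way, was -0.44. FPKM depends on the transcript lengths estimated in each library, so which measure is nearer to the transcript level of these genes was not tested.

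The rest of the pathway was read in 5 lists, whose counts of calls stand beside the 4.21% of genes called in SW1990 and 4.8% in PANC-1. Of 15 other inhibitors and brakes, 14 were tested and none was called after radiation in either line. NFKBIB, another cytoplasmic inhibitor, had the highest mean FPKM of them over the 4 libraries, through its level in PANC-1, and was 10.2-fold higher in PANC-1 (log2 difference -3.35 ± 0.17, edgeR adjusted p = 0.000943), which its overlap with SIRT2 on the opposite strand makes less certain. Its log2 fold change after radiation was 0.20 in SW1990 and -0.12 in PANC-1, unlike NFKBIE, with no call. The A20 partners TNIP1 (-0.44 and -0.31) and TAX1BP1 (-0.02 and -0.33, overlapping JAZF1 on the opposite strand) were not called either. The rise of NFKBIE was thus the 1 call at 2-fold among the inhibitors named here. With more than 1.5-fold, 2 of the 14 passed in PANC-1, beside 11.9% of genes, and 0 in SW1990. These were NFKBID (0.73) and COMMD1 (0.70, overlapping RPSAP26 and CCT4), both named after their values were seen.

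Of 34 kinases and adaptors, 1 was called in SW1990 (2.94%) and 2 in PANC-1 (5.88%), near those shares. XIAP, a relative of BIRC3 that blocks caspases, fell in both lines, from 1021 to 508 counts in SW1990 (-1.01, -1.17 to -0.86) and from 3186 to 565 in PANC-1 (-2.35, -2.48 to -2.22). Its direction in PANC-1 was thus opposite to that of BIRC3. The fall of XIAP was smaller from its FPKM, at -0.68 and -1.24, and in SW1990 not past 2-fold. MAP3K8, a kinase held by the NFKB1 precursor, rose in PANC-1 from 38 to 88 counts (1.36, 0.80 to 1.95) and had 212 counts in each SW1990 library. At 0.42 and 2.17 FPKM in PANC-1 it was tested only because of its level in the irradiated library. Both responses differed between the lines by the test of the difference, with PANC-1 minus SW1990 at -1.33 for XIAP and 1.37 for MAP3K8. From the FPKM values above, the responses of XIAP in the lines differed by less than a 2-fold ratio. IRAK1 (0.49 and -0.10), RBCK1 (0.28 and -0.57) and UBE2V1 (0.41 and -0.34, overlapping TMEM189-UBE2V1), which act upstream of the kinase complex, were not called.

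Among 26 ligands and receptors, 11 were tested in SW1990 and 10 in PANC-1, with 1 and 2 called. TNFRSF1B, the TNF receptor that recruits TRAF1 and BIRC3, rose in PANC-1 from 530 to 1285 counts (1.43, 1.28 to 1.58) and had 2140 and 2188 in SW1990 (0.03, -0.06 to 0.11), a difference called between the lines (1.40 higher in PANC-1). IL1R1, an interleukin-1 receptor, rose in PANC-1 from 135 to 298 counts (1.29, 0.99 to 1.60), but its FPKM changed by 0.18 on the log2 scale. Of the 10 tested there, 4 had higher and 6 lower values in the irradiated library (median -0.12 on the log2 scale). IL1RN, the interleukin-1 antagonist, rose in SW1990 from 105 to 387 counts (1.88, 1.56 to 2.20) and had 0 counts in PANC-1. LTBR, a receptor of the noncanonical route, had 1399 and 1089 counts in SW1990 (-0.37, but 0.25 from FPKM) and 0 and 4 in PANC-1, the line with more NFKB2. Its exons overlap SCNN1A on the opposite strand. TNFRSF1A (-0.47 and -0.62) and TNFRSF12A (0.67 and -0.22) were not called. From FPKM, TNFRSF1A in PANC-1 was lower by more than 2-fold, at -1.13.

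Of 12 genes of the DNA damage route to NF-kB, none was called in either line, with a median log2 fold change of -0.02 in SW1990 and -0.06 in PANC-1. PARP1 (0.06 and 0.09) and PPP4C (-0.09 and 0.13) were among its most abundant members. PIDD1, an adaptor of the damage signal chosen here after its values were seen, had 554 and 944 counts in PANC-1 (0.92, 0.77 to 1.07), under 2-fold, and 491 and 474 in SW1990 (-0.06, -0.24 to 0.13), and overlaps RPLP2 on the opposite strand. Of 40 other target genes, 24 were tested in each line, 2 were called in SW1990 and none in PANC-1, with medians of 0.20 and -0.02. In SW1990, 18 of the 24 had higher and 6 lower values, beside 7778 of 15731 genes higher, and 4 passed with more than 1.5-fold, beside 9.36%, namely the chemokines below, ICAM1 (0.92) and the prostaglandin synthase PTGS2 (153 and 255 counts, 0.73, 0.44 to 1.03, with 14 and 2 counts in PANC-1), the latter pair chosen after their values were seen. Both calls at 2-fold were falls of neutrophil chemokines, CXCL8 from 80 to 33 counts (-1.28, -1.91 to -0.68, and under 2-fold from FPKM at -0.62) and CXCL5 from 795 to 382 (-1.06, -1.24 to -0.88). CXCL5 had 0 counts in PANC-1, where CXCL8 had 50 and 67 counts (0.57), a response called different between the lines (1.85 higher in PANC-1). The abundant targets PLAU (0.32 and -0.02, overlapping C10orf55 on the opposite strand), IER3 (0.32 and -0.05) and BCL2L1 (0.45 and -0.35) were not called. With 24 targets tested, a count of 0 in PANC-1 is near the 4.8% of all genes, and 2 targets passed there with more than 1.5-fold, beside 11.9%.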

How the data were processed

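RNA was sequenced from 4 cultures, 1 library per line and treatment. Per the labels, an mRNA-seq kit was used, while the sample record also says rRNA depleted. The submitters' processing notes name CASAVA 1.8, FastQC 0.11.2, Trimmomatic 0.36, HISAT2 2.0, StringTie 1.3.3b, DESeq2 1.12.4 and GRCh38. The counting tool and strandedness are not given in the sources used here. The authors deposited 1 table of raw read counts per gene and FPKM values. It had 0 columns of other samples. Rows naming no gene (1089 of 59263, 0.453% to 0.635% of counts) were left out, and 27 symbols turned into dates were restored. Locations are from GENCODE 29.

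Genes that reached 1 FPKM in either library of a pair were tested with an exact conditional binomial test of the counts (2-sided, TMM-scaled library sizes, Benjamini-Hochberg q-values over all genes) and called at a q-value under 0.001 and more than 2-fold, with 0 set to 0.01. The difference between lines used the exact conditional test of the 2 by 2 table of counts. Over 4 libraries, edgeR 4.0.16 in R 4.3.3 (quasi-likelihood, line and treatment as terms, adjusted p of 0.05) was used, with DESeq2 1.42.0 and limma 3.58.1 as alternatives. Intervals for pairs of libraries are 95% Clopper-Pearson. Those of the difference of the radiation change between lines are 95% normal approximations from the counting SE. The tests of pairs, of the difference and of the line contrast in edgeR were tested on simulated counts, where the test of the difference missed some of the changed genes and passed only after the limit for its recovery was lowered. DESeq2, limma and the radiation contrast over both lines were not. For the pairs and the difference, the simulated counts held no variation between cultures, so false calls from such variation were not assessed.

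The 10 genes were all named. From each of 5 further lists, genes called in either line (at most 6, by size) and the 3 with the highest mean FPKM were named, apart from genes not reported here. Members and lists were chosen with earlier results of these data known.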

Additional observations from a re-analysis of the deposited data

Results flagged for a closer look

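The change of BIRC3 after 10 Gy differed between the lines by a log2 value of -1.13 (SW1990 minus PANC-1), with 337 and 301 counts in SW1990 and 1019 and 1789 in PANC-1, and was set apart because the exact test of the difference itself passed a q-value of 0.001 and a ratio of 2. The test compares 4 libraries, and the spread between cultures was not measured.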

How the results depend on the processing

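With 1 library per condition, the tests of pairs and of the difference hold no replicate error, the 4-library fits have 1 residual degree of freedom, and a small difference in scaling or measure can move a gene over 2-fold. In PANC-1, 1 of the 10 genes was called. With total-count scaling it was 2 and with a limit of 1.5-fold it was 2 (NFKBIE and BIRC3 in both), and when a biological variation (coefficient 0.2 or 0.4) was assumed it was 0 and 0. Over all genes, the 728 calls in PANC-1 became 318 at an FPKM of at least 5, 1810 at 1.5-fold, and 100 and 10 at the assumed variations of 0.2 and 0.4, and the 663 in SW1990 became 306, 1472, 99 and 15. At a ratio of 1.5, 3 genes (NFKBIA, NFKBIE and BIRC3) differed in response between the lines (11.8% of all genes), in place of 1, and with FPKM folds, added after seeing the data, it was 1 (BIRC3). The 5 calls of the line difference became 4 by DESeq2 (without TRAF1) and 5 by limma. Within 1 treatment, the 2-library test and its 2-fold limit were used. It called RELA, BIRC3 and TRAF1 in the unirradiated libraries, and RELA, BIRC3 and NFKBIE, which is not among the 5, in the irradiated ones. Of 60 single-gene values under another scaling or measure, 55 kept direction and call, 1 fell under the limit (NFKBIE in PANC-1, 0.73 from FPKM) and 2 passed it (BIRC3 in PANC-1, 1.03 from total counts and 1.06 from FPKM). In SW1990, TNFAIP3 turned from 0.44 to -0.55 with FPKM and REL from 0.03 to -0.003 with total counts. Of the calls in PANC-1, 53.7% were higher after radiation, against 62.1% with total counts and 61.2% with FPKM folds, and 42.1% at an FPKM of at least 5. The cause of these moves was not tested. The line term of the 4-library fits pairs the treatments by line, and no further block could be fitted.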

Other observations

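ICAM1, an adhesion gene and NF-kB target chosen here after its values were seen, had 579 counts in unirradiated and 1102 in irradiated SW1990 (log2 fold change 0.92, 95% interval 0.78 to 1.07), under the limit of 2-fold, and 1924 and 1905 in PANC-1 (0.14, 0.04 to 0.23). The adaptor TICAM1 and the receptor chain IL1RAP, also chosen after their values were seen, differed in response between the lines, with differences of the log2 fold change in PANC-1 minus SW1990 of -1.05 and -1.04 from counts. From FPKM these differences were -0.98 and -0.22, so neither passed a 2-fold ratio, and IL1RAP in PANC-1 turned from -0.96 to 0.14.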
